A study of Mus musculus with 20 samples.

Results

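Expression of 8 genes of thyroid hormone signaling was examined in RNA-seq libraries of the mouse cochlea. The genes were taken as a list of receptors, deiodinases, a transporter and response genes of a hormone pathway with a known part in hearing onset. The list was chosen with earlier results of these data known, and its genes are 8 of the 24411 genes in the deposited tables. They comprise the transporter gene *Slco1c1*, the deiodinase genes *Dio2* and *Dio3*, the receptor genes *Thra* and *Thrb*, the receptor partner gene *Rxrg*, and the response genes *Hr* and *Klf9*.

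Thyroid hormone circulates mostly as thyroxine, which enters cells through membrane transporters such as the product of *Slco1c1*. The deiodinase encoded by *Dio2* converts thyroxine to the active hormone triiodothyronine, whereas the deiodinase encoded by *Dio3* inactivates both forms. Triiodothyronine binds the nuclear receptors encoded by *Thra* and *Thrb*, which act on DNA mostly as heterodimers with a retinoid X receptor, of which *Rxrg* encodes the gamma form. The cochlea is among the tissues best known to depend on this hormone in early postnatal life. Without the hormone, or without the receptor encoded by *Thrb*, the sensory epithelium matures late or abnormally and hearing is impaired.

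The study made 20 libraries from *Bai1* tm2b/+ mice (Het) and *Bai1* tm2b/tm2b mice (Homo) at postnatal day 7 (P7), before hearing onset, and at P22, after it. The tm2b allele is a Cre-converted knockout allele of *Adgrb1*, the gene that encodes the adhesion receptor BAI1, on the C57BL/6N background. It removes exons of the long isoform, and the controls carry 1 copy of it too, so no library is from wild-type mice. Each library came from sensory epithelium and spiral ganglion neurons dissected from 4 mice, and each genotype had 3 libraries at P22 and 7 at P7. The libraries of P22 and of P7 replicates 5 to 7 hold estimated counts, with totals of 31108551 to 58807173, whereas those of P7 replicates 1 to 4 hold whole numbers with totals of 999644 to 999777. From these totals and from their dependence on transcript length they were read as transcripts-per-million values (TPM) rounded to whole numbers, since no source states their unit. The paper describes the Homo mice as littermates of the controls, and the libraries were tested as unpaired. Nothing in the labels says that the pools come from separate litters, so the p values measure the spread between these libraries.

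The tissue label was checked against marker genes listed for each cell type. In the libraries in counts, 8 hair cell markers summed to between 711 and 1158 CPM (counts-per-million), 8 spiral ganglion neuron markers to between 1175 and 16503 CPM and 8 supporting cell markers to between 1496 and 11503 CPM, and no gene of these 3 lists was at 0 throughout a group. Markers of the thyroid gland summed to between 7.39 and 11.5 CPM at P7. At P22 they summed to between 15.8 and 16.8 CPM in Het and between 19.0 and 26.5 CPM in Homo. Of these 6 markers, 3 could be tested at P22. By the rule for calls given below, edgeR called 1 of the 3, higher in Homo, beside 1.74% of 15443 genes, and DESeq2 called 1. The targeted gene *Adgrb1* was at 152 to 167 CPM in Het and 100.2 to 105 CPM in Homo at P22 (log2 fold change −0.61, SE 0.059, adjusted p = 0.000602, edgeR quasi-likelihood test). At P7 it was at 32.1 to 56.4 CPM in Het and 21.6 to 31.2 CPM in Homo in the libraries in counts, a difference that did not pass the test (adjusted p = 0.894), and the genotypes overlapped in rounded TPM (7 to 12 and 9 to 12 TPM). The values per gene sum all isoforms, the long and short ones of *Adgrb1* included.

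Stretches of the start regions of 3 of the genes are shown, because these genes differed between ages or genotypes. Each is the 250 bases before a RefSeq transcript start on build GRCm38.p6 (mm10), read in the direction of the gene. Capitals mark AGGTCA (the hexamer that thyroid hormone and retinoid X receptors bind) in *Thrb* start 1 and *Rxrg* start 2. They also mark CACGTG (an E-box) and TATAAA (the letters of a TATA box) in *Thrb* start 2. In *Dio2* they mark TGACGTCA (the cAMP response element) and TATAAA.
Thrb start 1, chr14:17660710-17660959, plus strand: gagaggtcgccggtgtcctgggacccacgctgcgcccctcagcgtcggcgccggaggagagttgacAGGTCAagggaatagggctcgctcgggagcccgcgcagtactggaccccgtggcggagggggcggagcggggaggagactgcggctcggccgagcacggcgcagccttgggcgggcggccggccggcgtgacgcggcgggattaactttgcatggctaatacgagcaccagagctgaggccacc
Thrb start 2, chr14:17981394-17981643, plus strand: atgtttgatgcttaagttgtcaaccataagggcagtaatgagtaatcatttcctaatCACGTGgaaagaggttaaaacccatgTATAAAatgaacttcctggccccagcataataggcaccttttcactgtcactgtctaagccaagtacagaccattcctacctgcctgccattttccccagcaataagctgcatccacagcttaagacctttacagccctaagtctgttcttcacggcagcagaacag
Dio2, chr12:90739039-90739288, minus strand: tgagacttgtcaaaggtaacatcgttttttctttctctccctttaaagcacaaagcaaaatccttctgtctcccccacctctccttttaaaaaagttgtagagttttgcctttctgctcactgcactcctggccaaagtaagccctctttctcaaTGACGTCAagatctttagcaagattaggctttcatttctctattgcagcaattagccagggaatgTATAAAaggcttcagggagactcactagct
Rxrg start 2, chr1:167618015-167618264, plus strand: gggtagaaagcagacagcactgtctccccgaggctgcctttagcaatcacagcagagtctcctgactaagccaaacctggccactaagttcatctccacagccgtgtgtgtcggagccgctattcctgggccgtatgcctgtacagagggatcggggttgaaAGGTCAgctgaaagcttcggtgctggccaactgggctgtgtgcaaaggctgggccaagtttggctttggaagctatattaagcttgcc

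The motifs were searched on both strands, from 250 bases before to 50 bases after each start. AGGTCA began 184 bases before *Thrb* start 1 and 88 bases before *Rxrg* start 2, the window of *Rxrg* start 1 (not shown) held none of the motifs, and AGGTCA lies in 16.3% of 32851 mouse promoter windows of the same length. TGACGTCA began 95 bases before the start of *Dio2* and lies in 1.79% of the windows, and TATAAA began 30 bases before it and lies in 13.6%. CACGTG began 193 bases and TATAAA 167 bases before *Thrb* start 2, and CACGTG lies in 7.15% of the windows. The spaced repeat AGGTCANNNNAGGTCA, the classical thyroid hormone response element, was in no window of these genes and in 0.0152% of all windows. These matches describe the letters of the windows, and none was tested as a binding site. The windows of the *Thrb* starts differ in base composition (71.6% and 44% G or C before the start), and the deposited values sum the transcripts of both.

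At P22, *Rxrg* was the only gene of the 8 that passed the test between genotypes. It was 1.5-fold lower in Homo than in Het, while the log2 fold changes of the others ran from −0.04 to 0.42. From these same P22 libraries, the paper already names *Rxrg* among the downregulated genes, as one associated with type I spiral ganglion neuron subtypes. Genes were called where the p value adjusted over all genes tested was under 0.05, the log2 fold change exceeded 0.5 up or down and its standard error stayed below 0.5. By this rule 1 of 8 members was called at P22, beside 3.15% of 15443 genes tested, of which 1.74% were higher and 1.41% lower in Homo. At P7, 0 of 7 members tested were called in the libraries in counts by edgeR, beside 0% of 16026 genes, and none had an unadjusted p under 0.05 (763 of all genes did). DESeq2 called none of the 7 either, and 48 of all genes. In the libraries in rounded TPM, 0 of 7 were called by limma, beside 0.767% of 11740 genes (0.596% higher and 0.17% lower in Homo), and 1 had an unadjusted p under 0.05 (4029 of all genes did). *Dio3* was too low to be tested at P7.

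**Figure D1:**
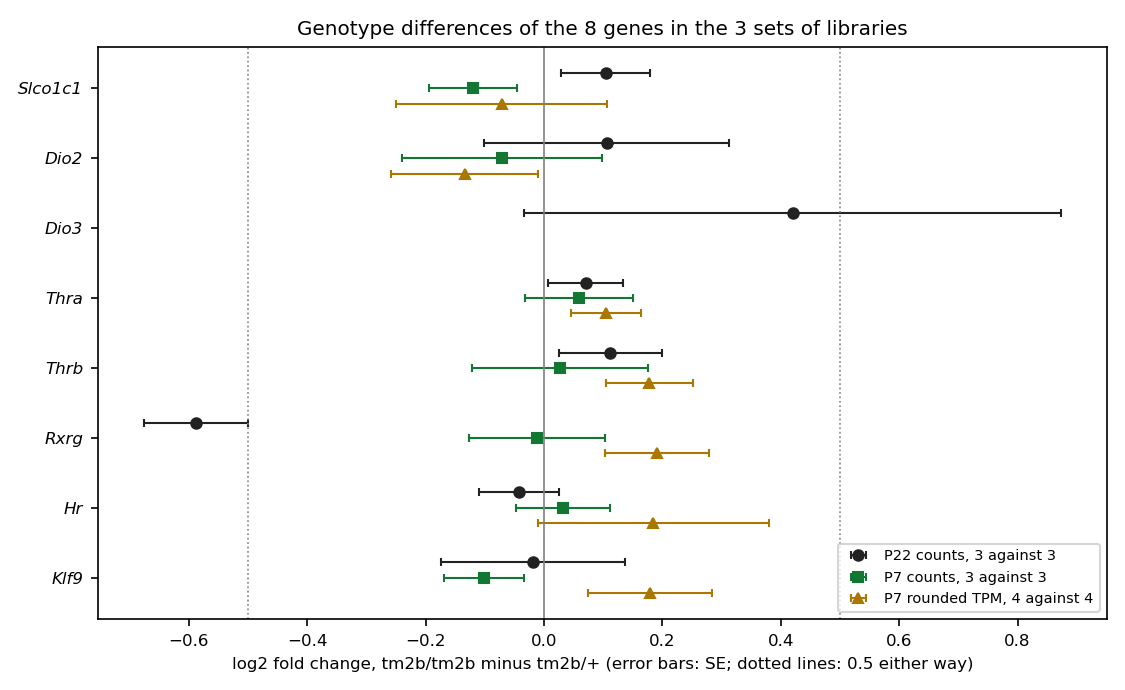
Log2 fold change of each gene between Bai1 tm2b/tm2b and Bai1 tm2b/+ (x axis, with SE) in P22 libraries in counts (circles), P7 libraries in counts (squares) and P7 libraries in rounded TPM (triangles). Rxrg at P22 stands at −0.59, beyond the dotted line at 0.5, whereas no other gene passes the test in any set.

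Between P7 and P22 the levels differed much more. *Dio2*, *Thrb* and *Hr* fell and *Rxrg* rose, in both genotypes, so that 4 of 8 members were called in Het, beside 51.8% of 16314 genes, and 4 of 8 in Homo, beside 49.3%. These shares are near the background. The 3 that fell compare with 27% of all genes that fell in Het and 25.1% in Homo, and the rise of *Rxrg* with 24.8% and 24.2% that rose. The paper describes separate batches at P7, of 4 and 3 pools per genotype, and another batch at P22. The P7 sets in rounded TPM and in counts have these sizes. In the joint P7 data, the paper reports that the first principal component captured dissection batch and experimental run. The ages were deposited in separate tables, so age, table and batch cannot be told apart in any of these values. Cell type markers also moved between ages. Spiral ganglion neuron markers summed to between 1175 and 2722 CPM at P7 and between 10668 and 16503 CPM at P22, and supporting cell markers to between 6414 and 11503 CPM at P7 and between 1496 and 2042 CPM at P22. Bone markers summed to between 861 and 2095 CPM at P7 and between 189 and 478 CPM at P22, and proliferation markers to between 66.5 and 148 CPM and between 5.63 and 20.4 CPM. The part of these shifts in the levels below was not tested, and in bulk tissue fewer cells of a type and less RNA per cell cannot be told apart.

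**Figure D2:**
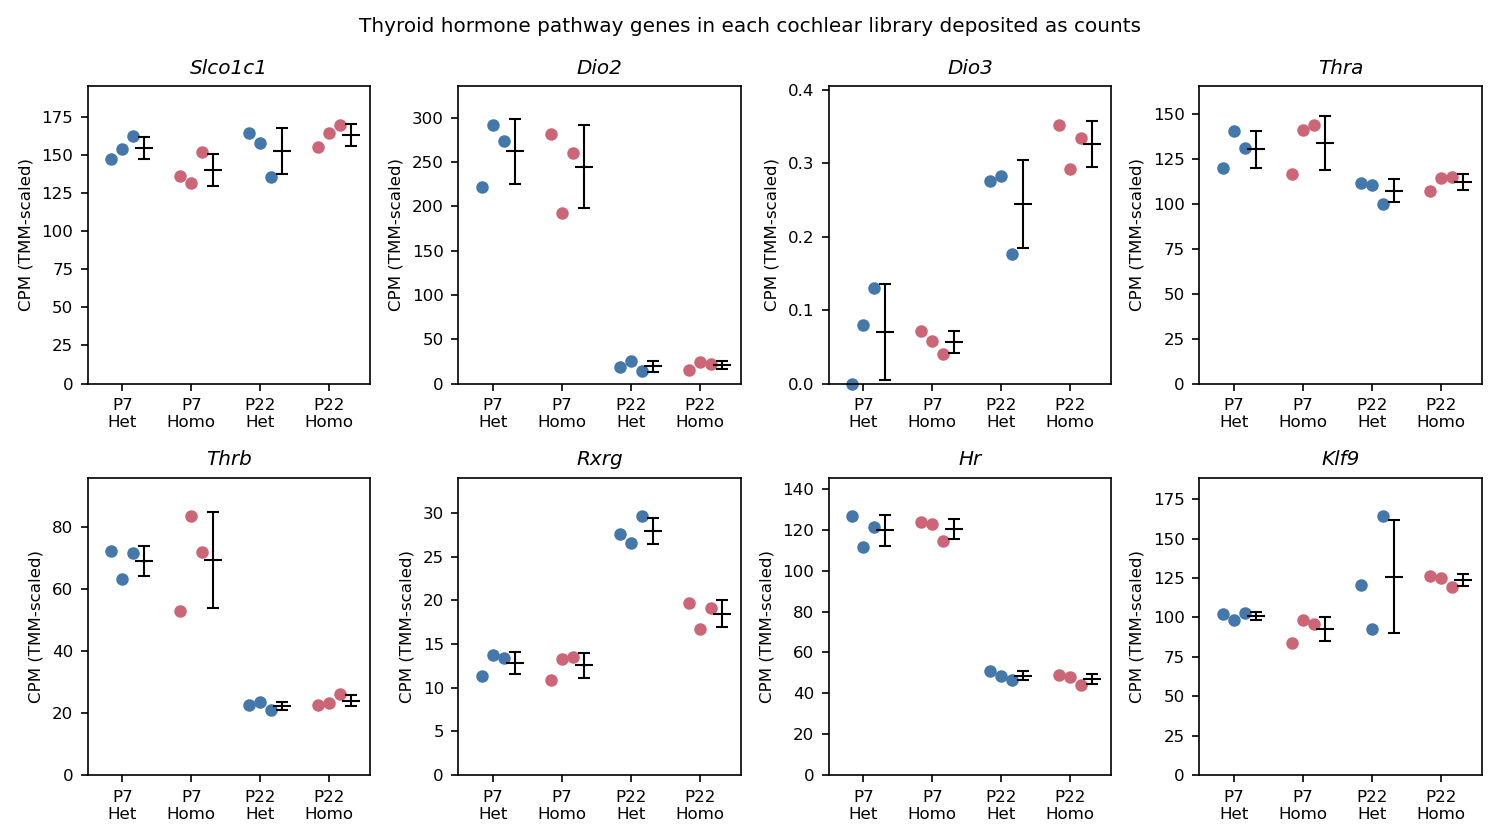
Level of each gene in the 12 libraries in counts (y axis, CPM after TMM scaling over these libraries), by age and genotype, with 1 point per library and the mean and SD of 3 libraries beside the points. Dio2, Thrb and Hr are lower in every P22 library than in any P7 library, and Rxrg separates the genotypes at P22 but not at P7.

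*Slco1c1* (chr6:141524368-141570177, plus strand), which encodes the thyroxine transporter, was not called in any comparison. At P7, it was at 147, 154 and 162 CPM in Het replicates 5 to 7 and at 136, 132 and 152 CPM in Homo. At P22, it was at 164, 158 and 136 CPM in Het and 155, 165 and 170.0 CPM in Homo. The genotypes overlapped at both ages. The genotype difference was −0.12 (SE 0.075, adjusted p = 0.894) at P7 and 0.10 (SE 0.075, adjusted p = 0.392) at P22 on the log2 scale. The difference between these effects was 0.24 (SE 0.12, unadjusted p = 0.0633, adjusted p = 0.512, edgeR). Between ages the gene differed by −0.02 in Het (SE 0.083) and 0.22 in Homo (SE 0.083), neither of which was called. In rounded TPM at P7 the Homo libraries were split, with 121 and 115 TPM in replicates 2 and 3 and 70 and 78 TPM in replicates 1 and 4, while Het stood at 92, 81, 107 and 84 TPM.

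*Dio2* (chr12:90724552-90738438, minus strand), which encodes the activating deiodinase, had the largest difference between ages of the 8 genes. At P7 it stood at 221, 292 and 273 CPM in Het and at 281, 192 and 260.5 CPM in Homo. At P22 it stood at 18.7, 25.2 and 13.8 CPM in Het and at 15.4, 24.0 and 22.4 CPM in Homo. Every P22 library was below every P7 library. The gene was 13.6-fold lower at P22 in Het (log2 fold change −3.77, SE 0.24, adjusted p = 3.17e-08) and 11.9-fold lower in Homo (−3.57, SE 0.24, adjusted p = 5.6e-08), and 260 of 16314 genes had a lower log2 fold change in Het and 312 in Homo. These calls held with each library left out, with log2 fold changes from −4.01 to −3.57 in Het and −3.72 to −3.40 in Homo. Between genotypes it differed by 0.11 (SE 0.21) at P22 and −0.07 (SE 0.17) at P7, and the sign of both turned when single libraries were left out. In rounded TPM at P7 it was at 122, 125, 159 and 126 TPM in Het and 112, 159, 131 and 125 TPM in Homo, which overlap.

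*Dio3* (chr12:110279068-110281097, plus strand), which encodes the inactivating deiodinase, was at the limit of detection. At P22 it had 9, 9 and 6 counts in Het and 13, 11 and 12 in Homo, and at P7 it had 0, 5 and 6 in Het and 3, 2 and 2 in Homo. It was listed at 0 in all 8 libraries in rounded TPM, where a value under 0.5 would round to 0. Over all libraries of an age, 60 counts at P22 gave 0.260 CPM of the summed totals (exact Poisson 95% interval of the count 45.8 to 77.2), and 18 counts at P7 gave 0.0721 CPM (10.7 to 28.4), intervals that cover counting error only. The log2 fold change between ages was 1.71 in Het (SE 0.64, adjusted p = 0.0293) and 2.48 in Homo (SE 0.66, adjusted p = 0.00467), and both exceeded the limit on standard error and were not called. The genotypes did not overlap at P22, and their difference of 0.42 (SE 0.45, adjusted p = 0.583) did not pass the test. Of the genes tested at P22, 33.7% did not overlap between genotypes, among them 2 of the 8 members, *Dio3* and *Rxrg*. Per kb of the median annotated transcript, *Dio2* was 20.7 times *Dio3* at P22 (95% interval 16.1 to 27.2) and 1182 times *Dio3* at P7 (748 to 1995). These intervals hold only the counting error of *Dio3*, with the *Dio2* total taken as fixed. They leave out the spread between libraries of both genes.

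*Thra* (chr11:98740638-98769006, plus strand), which encodes the thyroid hormone receptor alpha, was the higher of the receptor genes at each age, per kb of transcript and in rounded TPM. At P7 it was at 119.6, 140.2 and 131 CPM in Het and 116, 141 and 144 CPM in Homo, and at P22 at 112, 110.2 and 99.9 CPM in Het and 107, 114 and 115 CPM in Homo. It differed between ages by −0.28 in Het (SE 0.089, adjusted p = 0.0126) and −0.26 in Homo (SE 0.089, adjusted p = 0.0207) on the log2 scale, short of the 0.5 that a call required. With library totals in place of TMM scaling, the median of all genes shifted by −0.30 in Het and −0.28 in Homo, and the differences of *Thra* became −0.58 and −0.53, which were called. Between genotypes the difference was 0.07 (SE 0.063) at P22 and 0.06 (SE 0.091) at P7. In rounded TPM, Het was at 122, 119, 102 and 106 TPM and Homo at 126, 126, 126 and 146 TPM. These do not overlap, and the log2 fold change of 0.11 (SE 0.059, adjusted p = 0.229, limma) did not pass the test. On the opposite strand *Nr1d1* covers 5.7% of the exon bases of *Thra*, and the counting is not stated to use strand.

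*Thrb* (chr14:17660261-18038090, plus strand), which encodes the receptor beta, fell between ages. At P7 it stood at 72.1, 63.2 and 71.6 CPM in Het and at 52.7, 83.4 and 72.0 CPM in Homo. At P22 it stood at 22.4, 23.6 and 20.9 CPM in Het and at 22.7, 23.2 and 26.1 CPM in Homo. Every P22 library was again below every P7 library. The gene was 3.09-fold lower at P22 in Het (log2 fold change −1.63, SE 0.14, adjusted p = 3.55e-07) and 2.89-fold lower in Homo (−1.53, SE 0.14, adjusted p = 6.77e-07), and both calls held with each library left out. Between genotypes the difference was 0.11 (SE 0.086, adjusted p = 0.424) at P22 and 0.03 (SE 0.15, adjusted p = 0.982) at P7 in counts. In rounded TPM, Het was at 17, 15, 16 and 15 TPM and Homo at 18, 22, 19 and 19 TPM, so that every Homo library was above every Het library. The log2 fold change was 0.18 (SE 0.074, unadjusted p = 0.0358, adjusted p = 0.121, limma), which did not pass, and the adjusted p ranged from 0.0469 to 0.27 over the alternatives. Of the genes tested in rounded TPM, 14.8% did not overlap between genotypes in the unscaled values, among them 2 of 7 members, *Thra* and *Thrb*. Of the 7 members tested in the P7 counts, 0 were without overlap, beside 10.7% of all genes.

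The ratio of the receptor genes moved with *Thrb*. Per kb of the median annotated transcript, *Thrb* was 0.434 ± 0.0548 of *Thra* at P7 (SD, n = 6) and 0.175 ± 0.00805 at P22 (n = 6). The P7 libraries ranged from 0.374 to 0.499 and the P22 libraries from 0.166 to 0.189, which do not overlap. The length chosen sets the size of the ratio. With the longest annotated transcript it was 0.207 ± 0.0262 at P7 and 0.0835 ± 0.00385 at P22. In rounded TPM at P7, which is already per length, the ratio was 0.145 ± 0.0155 (n = 8). The genotypes overlapped in each of the 3 sets.

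*Rxrg* (chr1:167598384-167639623, plus strand), which encodes the retinoid X receptor gamma, was the gene that separated the genotypes at P22. At that age it stood at 27.6, 26.6 and 29.6 CPM in Het and at 19.7, 16.7 and 19.1 CPM in Homo. All Homo libraries were below all Het libraries. The log2 fold change was −0.59 (SE 0.088, adjusted p = 0.00394, edgeR), it was called with each library left out (−0.63 to −0.51, adjusted p up to 0.0201), and DESeq2 gave −0.59 (adjusted p = 1.71e-06). At P7 the gene stood at 11.4, 13.7 and 13.5 CPM in Het and at 10.9, 13.3 and 13.5 CPM in Homo, which overlap (−0.01, SE 0.11, adjusted p = 0.991). In rounded TPM at P7 it was at 10, 11, 9 and 9 TPM in Het and at 11, 11, 13 and 14 TPM in Homo (0.19, SE 0.088, adjusted p = 0.154). The test of the difference between the genotype effects at P22 and P7, on counts, gave −0.56 (SE 0.15, unadjusted p = 0.00305, adjusted p = 0.265). This difference was not called by edgeR, which called 0.0306% of 16314 genes and 0 of the 8 members. DESeq2 gave −0.59 with an adjusted p of 0.0464, which passed, and called 119 genes in all.

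The rise of *Rxrg* between ages was 2.17-fold in Het (log2 fold change 1.12, SE 0.11, adjusted p = 1.11e-06) and 1.47-fold in Homo (0.56, SE 0.11, adjusted p = 0.000513). Both were called. The value in Homo was close to the limit of 0.5, and it was 0.47 without P7 Homo replicate 5 and 0.28 with library totals, neither of which was called.

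The summed level of spiral ganglion neuron markers was lower in Homo at P22, as that of *Rxrg* was. Their sum was 15166, 14530 and 16503 CPM in Het and 12140, 10668 and 11140 CPM in Homo. The median log2 fold change of the 8 markers was −0.42. At an adjusted p under 0.05, 5 of them were lower in Homo, beside 1125 of 15443 genes tested. By the same limit 1 was higher, the transcription factor gene *Gata3* (0.36, adjusted p = 0.0295), beside 779 of all genes. Of the 8, only the neurofilament gene *Nefh* also passed the limit on fold change (−0.52, adjusted p = 0.00505). The level of *Rxrg* was 0.182%, 0.183% and 0.18% of this sum in Het and 0.162%, 0.156% and 0.172% in Homo. In the P7 counts the markers also had a median of −0.42, with 0 of 8 called by edgeR or DESeq2 and 1 at an unadjusted p under 0.05, while *Rxrg* was at −0.01. There *Rxrg* was between 0.504% and 0.93% of the sum, and Het replicate 6, with the highest sum of 2722 CPM, had 13.7 CPM of *Rxrg*, beside 13.5 CPM in Het and Homo replicates 7 at sums of 1691 and 1749 CPM. Among the P7 libraries in rounded TPM, *Rxrg* was highest, at 13 and 14 TPM, in the Homo replicates 3 and 4, where the marker sums were also highest at 2362 and 2571 TPM, and lowest, at 9 TPM, in the Het replicates 3 and 4, where the sums were lowest at 1375 and 1280 TPM. Central glia markers were higher in Homo at P22, at 992 to 1620 CPM against 716 to 859 CPM, with 5 of 7 called, as were 3 of 8 supporting cell markers. Markers of marrow neutrophils had a median log2 fold change of 1.85, with 0 of 7 called by edgeR or DESeq2 and all 7 at an unadjusted p under 0.05, beside 4431 of 15443 genes. That difference lay in Homo replicates 1 and 2, at sums of 64.4 and 54.0 CPM, while Homo replicate 3 was at 7.54 CPM, within the Het range of 7.26 to 18.5 CPM. The part of these cell type markers in the *Rxrg* difference was not tested.

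**Figure D3:**
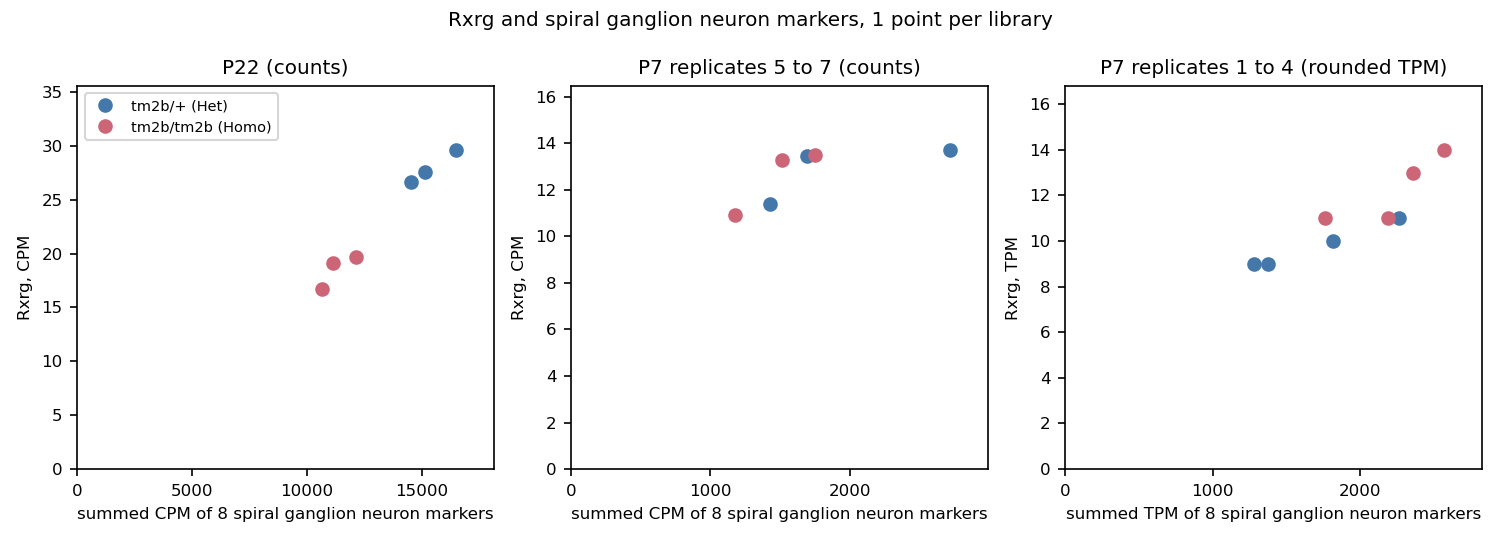
Rxrg (y axis) against the summed level of 8 spiral ganglion neuron markers (x axis) in each library, in CPM for counts and in TPM for rounded TPM, with Het in blue and Homo in red. At P22 the Het libraries lie between 14530 and 16503 CPM of markers and between 26.6 and 29.6 CPM of Rxrg, and the Homo libraries lie below on both axes.

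*Hr* (chr14:70552212-70573548, plus strand), a nuclear corepressor gene that responds to thyroid hormone in the brain, fell between ages with a small spread. At P7 it was at 127, 112 and 121 CPM in Het and at 124, 123 and 115 CPM in Homo. At P22 it was at 50.9, 48.3 and 46.6 CPM in Het and at 48.8, 47.8 and 44.3 CPM in Homo. Here too every P22 library was below every P7 library. The gene was 2.47-fold lower at P22 in Het (log2 fold change −1.30, SE 0.068, adjusted p = 7.33e-09) and 2.56-fold lower in Homo (−1.36, SE 0.068, adjusted p = 7.63e-09). The genotypes differed by −0.04 (SE 0.067, adjusted p = 0.725) at P22 and 0.03 (SE 0.079, adjusted p = 0.956) at P7 (edgeR). In rounded TPM at P7, Homo replicates 2 and 3 stood apart at 42 and 45 TPM, beside 24 and 25 TPM in Homo replicates 1 and 4 and 31, 25, 24 and 26 TPM in Het.

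*Klf9* (chr19:23141226-23168134, plus strand), a transcription factor gene induced by thyroid hormone and by glucocorticoids, was not called between ages or genotypes. At P7 it was at 102, 98.1 and 102 CPM in Het and at 83.9, 98.3 and 95.6 CPM in Homo, and at P22 at 121, 92.7 and 164 CPM in Het and at 127, 125 and 119 CPM in Homo. The spread at P22 lay in Het, with an SD of 36 CPM against 3.77 CPM in Homo. The difference between ages was 0.32 in Het (SE 0.15, adjusted p = 0.0732) and 0.42 in Homo (SE 0.15, adjusted p = 0.0249). The genotype difference at P22 of −0.02 (SE 0.16) became 0.22 without Het replicate 3, and it was −0.10 (SE 0.068, adjusted p = 0.894) at P7. In rounded TPM at P7 it was at 59, 50, 49 and 46 TPM in Het and at 56, 67, 74 and 55 TPM in Homo (0.18, SE 0.10, adjusted p = 0.248).

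Homo replicates 2 and 3 of the libraries in rounded TPM were thus the highest of their group for *Slco1c1*, *Hr* and *Klf9* together. The same held for *Dio2*, at 159 and 131 TPM beside 112 and 125 TPM in Homo replicates 1 and 4. In these libraries the markers of Schwann cells and myelin summed to 22630 and 23199 TPM, beside 11588 and 13872 TPM in Homo replicates 1 and 4, and the markers of otic mesenchyme and fibrocytes to 5550 and 5677 TPM, beside 3194 and 3594 TPM. The part of these markers in the levels was not tested.

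**Figure D4:**
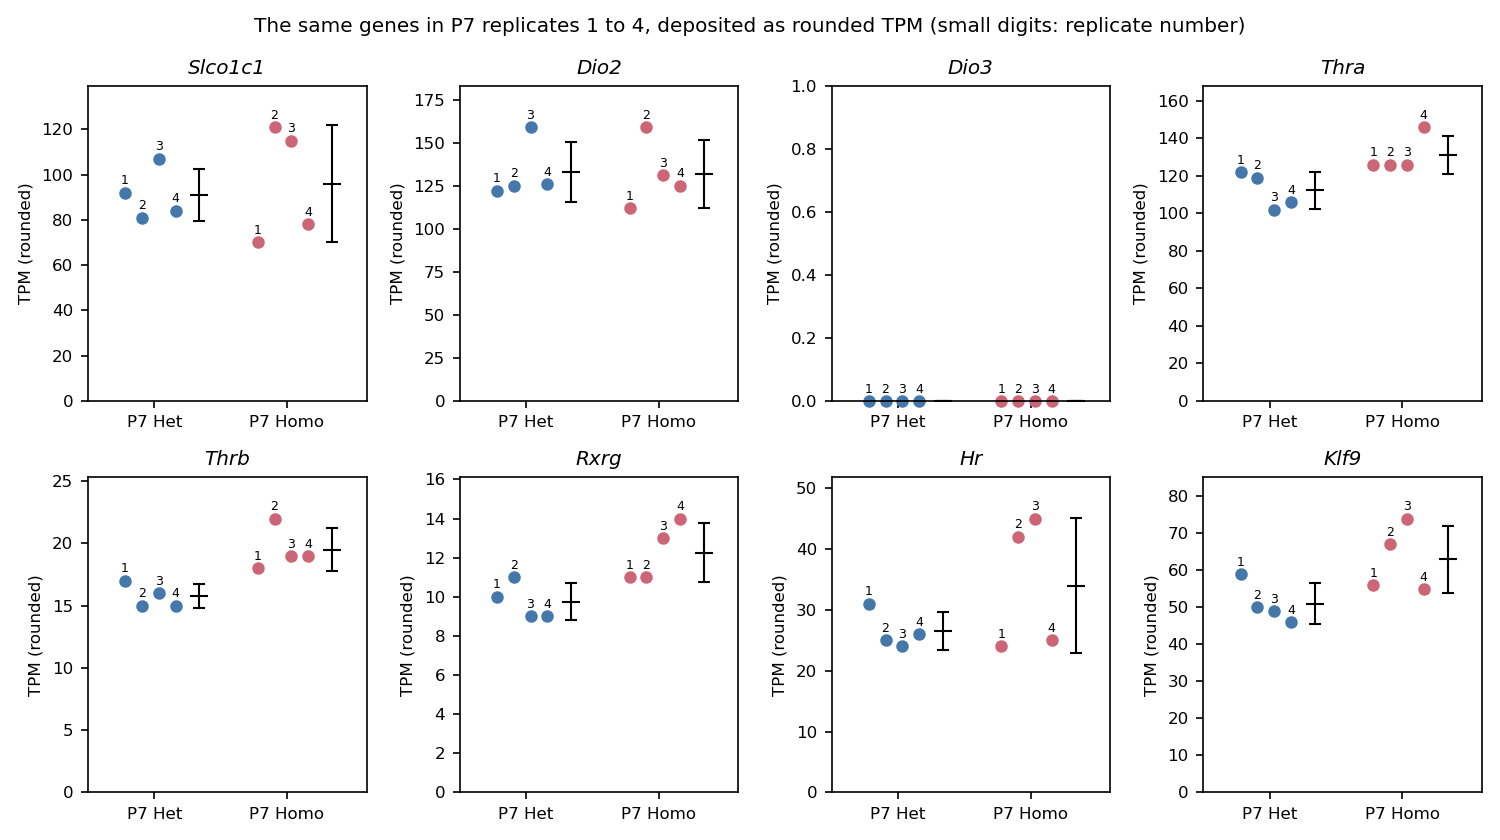
Level of each gene in P7 replicates 1 to 4 of each genotype (y axis, rounded TPM), with 1 point per library, its replicate number above it, and the mean and SD of 4 libraries beside the points. Thra and Thrb do not overlap between genotypes in these values, which are not TMM-scaled. Slco1c1, Dio2, Hr and Klf9 are highest in Homo replicates 2 and 3 among the Homo libraries, and Dio3 is listed at 0 throughout.

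Levels of different genes were compared per length only. In rounded TPM over the 8 P7 libraries of both genotypes, the order was *Dio2* (132 ± 17.3 TPM, SD, n = 8), *Thra* (122 ± 13.6), *Slco1c1* (93.5 ± 18.7), *Klf9* (57 ± 9.50), *Hr* (30.3 ± 8.51), *Thrb* (17.6 ± 2.39), *Rxrg* (11 ± 1.77) and *Dio3*, listed at 0. The ranges of *Dio2*, *Thra*, *Slco1c1* and *Klf9* each overlapped with the next of these 4, and those of *Klf9*, *Hr*, *Thrb*, *Rxrg* and *Dio3* did not. In CPM per kb of the median transcript at P22, the order was *Thra* (168 ± 8.51, n = 6), *Slco1c1* (60.8 ± 4.65), *Klf9* (44.5 ± 8.18), *Thrb* (29.3 ± 2.16), *Rxrg* (12.6 ± 2.92), *Hr* (9.05 ± 0.418), *Dio2* (3.43 ± 0.811) and *Dio3* (0.164 ± 0.0355). Of neighbours in this order, the ranges of *Slco1c1* and *Klf9* and those of *Rxrg* and *Hr* overlapped and the others did not. For *Rxrg*, whose genotypes differ, only Homo replicate 2 (9.09) reached the range of *Hr*, and the Het libraries lay between 14.5 and 16.1. At P7 on the same scale, *Dio2* was at 43.6 ± 6.67 and *Rxrg* at 6.92 ± 0.663. The annotation holds short transcripts of both receptor genes, and with the longest transcript at P22 *Thra* (44.7 ± 2.27) stood below *Slco1c1* (49.7 ± 3.80), with ranges that overlapped, and *Thrb* (3.73 ± 0.276) below *Hr* (8.52 ± 0.394).

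A further 45 genes of the pathway were followed in 7 lists. Between genotypes, 1 of 44 tested was called at P22, beside 3.15% of 15443 genes, so this count is near the background. It was *Cyp26b1*, a retinoic acid degrading enzyme gene that responds to thyroid hormone. The gene was higher in Homo (8.78 ± 1.30 CPM, n = 3) than in Het (4.50 ± 0.662 CPM, n = 3), with a log2 fold change of 0.97 (SE 0.16, adjusted p = 0.0056). Of the 45 tested in the P7 counts edgeR called 0, beside 0% of 16026 genes, and DESeq2 called 0. In edgeR 1 of the 45 had an unadjusted p under 0.05 (763 of all genes did). In rounded TPM 1 of 42 was called, beside 0.767% of 11740 genes. It was *Tecta*, which encodes the tectorial membrane protein alpha-tectorin, with 177 ± 31.1 TPM in Homo and 75 ± 28.1 TPM in Het (1.19, SE 0.27, adjusted p = 0.0454). That call was lost under 10 alternatives and kept under 5. The median log2 fold change of the genes tested was 0.0015 at P22, 0.04 in the P7 counts and 0.12 in rounded TPM, beside 0.01, 0.0028 and 0.0061 over all genes.

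Between ages, 24 of the 45 were called in Het (13 higher and 11 lower at P22) and 21 in Homo (10 higher and 11 lower), with medians of −0.02 and −0.12 beside −0.06 and −0.04 over all genes tested. Over all genes, 51.8% were called in Het (24.8% higher and 27% lower) and 49.3% in Homo (24.2% and 25.1%), so the counts of the 45 are near the background. The counts by list below lay on both sides of these shares and were not tested against them. All 8 genes of transport and binding were called in each genotype, 4 higher and 4 lower. In Het the organic anion transporter gene *Slco4a1* rose (3.75 on the log2 scale, SE 0.24), and the amino acid and hormone transporter gene *Slc16a10* (−2.53, SE 0.15) and the cytosolic hormone binding gene *Crym* (−2.34, SE 0.14) fell. The plasma carrier gene *Ttr* fell by 2.26 in Homo (SE 0.29).

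Of the genes for deiodination and selenoprotein synthesis, 1 of 6 was called in Het, *Sephs2* (0.69, SE 0.084). In Homo edgeR and DESeq2 each called 0 of 6, and 5 had an unadjusted p under 0.05 in edgeR, beside 12051 of 16314 genes. Of the other retinoid X receptor genes, *Rxrb* rose by 0.57 in Het (SE 0.064) and 0.63 in Homo (SE 0.065), and *Rxra* was at 0.19 (SE 0.070) and 0.13 (SE 0.070), which were not called. In the corepressor complex 1 of 6 genes was called, *Tbl1x*, which fell (−1.41 in Het, SE 0.091). Among 8 coactivator genes 4 were called in Het, all higher, led by *Ppargc1a* (2.39, SE 0.15), *Med24* (0.58, SE 0.055) and *Ncoa1* (0.55, SE 0.083), and in Homo 1 was called, *Ppargc1a* (2.02, SE 0.15).

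Of 10 genes that respond to the hormone outside the ear, 6 were called in Het, 3 in each direction, and 7 in Homo, 4 higher and 3 lower. *Cyp26b1* (−4.76, SE 0.19) and *Nrep* (−2.82, SE 0.11) fell and *Gadd45g* (1.39, SE 0.14) rose in Het, and *Shh* rose by 2.57 in Homo (SE 0.37). Of 5 cochlear genes that depend on the hormone, 3 fell in each genotype, among them *Tecta* (−8.02 in Het, SE 0.42) and the outer hair cell motor gene *Slc26a5* (−1.58, SE 0.28). With library totals in place of TMM scaling, *Sephs2*, *Med24* and *Ncoa1* in Het and *Rxrb* in both genotypes kept their direction and were no longer called.

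**Figure D5:**
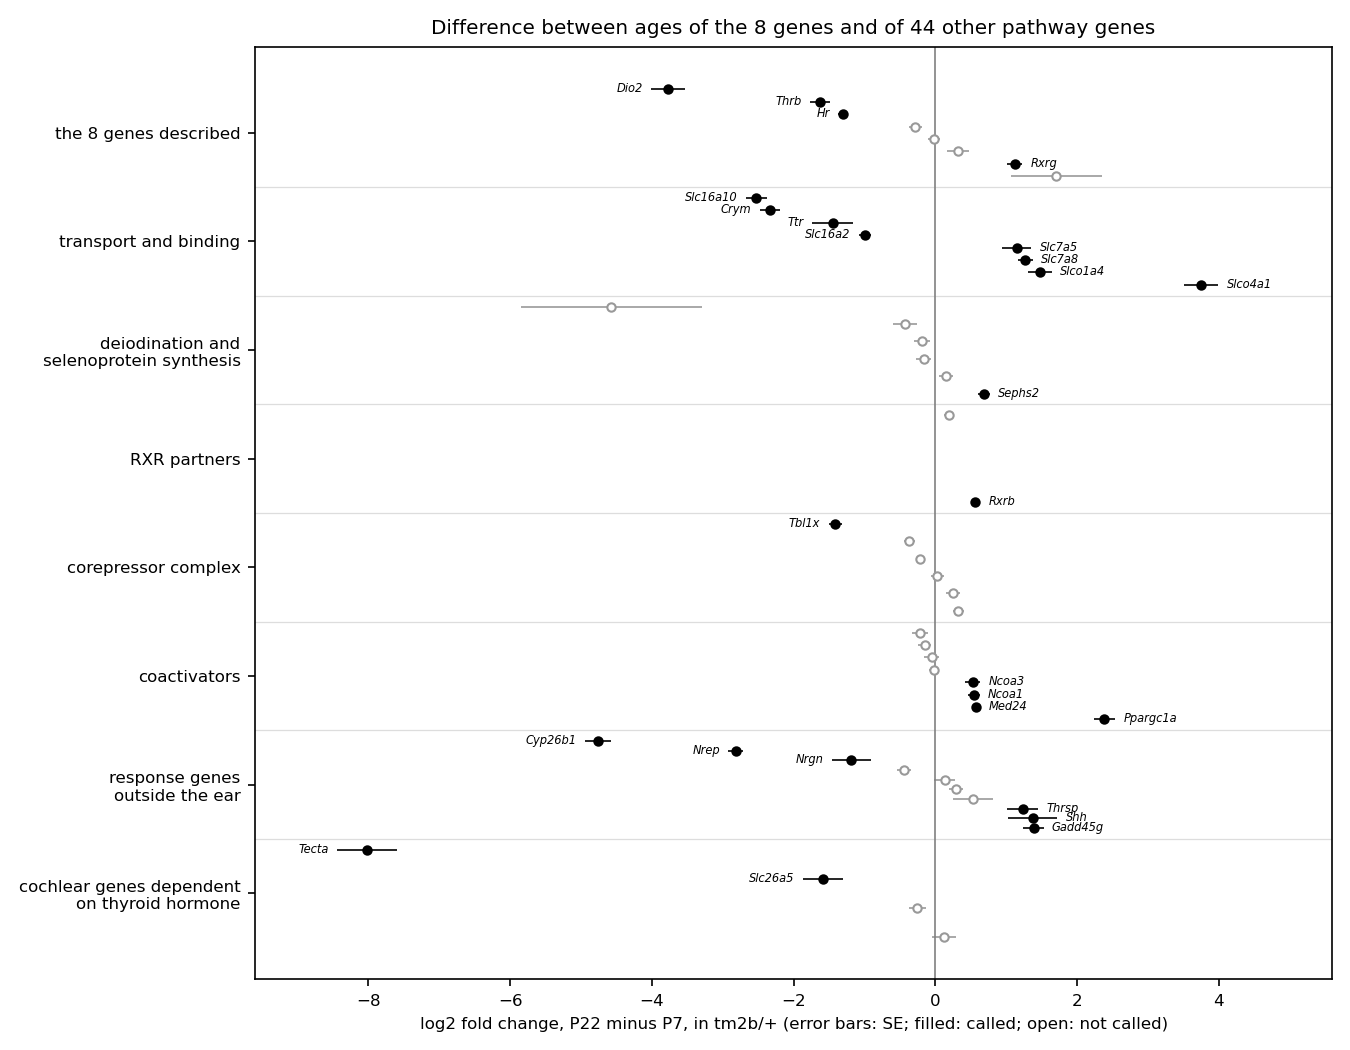
Log2 fold change between P22 and P7 in Bai1 tm2b/+ (x axis, with SE) of the 8 genes described and of 44 of the 45 other genes in 7 lists of the pathway (y axis), filled where called. Dio2 at −3.77 and Tecta at −8.02 lie far to the left, and the transport and binding genes lie on both sides of 0.

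The genes whose log2 CPM was most like that of each member over the 12 libraries in counts were named by Pearson's r, as a description, since the libraries fall into 2 ages and many genes share that difference. *Hpn*, *Cpxm2* and *Epcam* were most like *Thrb* (r of 0.9982 to 0.9987, with 2136 genes above 0.95), *Adamts7*, *Adgre1* and *Elk3* most like *Dio2* (0.9967 to 0.997, with 2150 genes), and *Gli2*, *Ano1* and *Adamts14* most like *Hr* (0.9974 to 0.9981, with 2347 genes). For *Rxrg*, which differed between genotypes as well, 315 genes were above 0.95, and the most like were a gene whose symbol the table gives as the date 5-Mar (0.9913), *Iars* (0.9896) and *Mark4* (0.9857). With library totals in place of TMM scaling these values became −0.3183, 0.6531 and 0.8706. For *Thra* the genes were *Dcaf13*, *Ccbl2* and *Nsg2* (0.945 to 0.9522), for *Dio3* they included *Gm11190* and *Gpaa1* (0.9687 and 0.9666), for *Klf9* *Sec22b*, *Slc10a6* and *Tmem56* (0.9056 to 0.9344), and for *Slco1c1* *Nol12*, *Hist3h2bb-ps* and *Pdcd2l* (0.8483 to 0.8625). With library totals some of these also fell, from 0.9344 to 0.3078 for *Sec22b* with *Klf9*, from 0.8495 to 0.1703 for *Hist3h2bb-ps* with *Slco1c1* and from 0.9666 to 0.6647 for *Gpaa1* with *Dio3*.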

How the data were processed

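Poly(A) RNA of pooled mouse cochleae was sequenced and, per the labels and the study's methods, aligned to mm10 by an nf-core pipeline for RNA, with gene counts from Salmon. The versions, the annotation release and the strand setting are not given in the sources used here. For P22 and P7 replicates 5 to 7 the deposited values are estimated counts, which were rounded to whole numbers. For P7 replicates 1 to 4 the deposited values are whole numbers, handled as a score that behaves as TPM. Across 8980 genes above 10 in both P7 sets, the log2 ratio of CPM to this score rose with log2 transcript length with a slope of 1.16 (r = 0.808). The depth of these libraries is unknown. Every value column was assigned to a library by its name, and no unassigned column was found.

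Counts were tested within each set with the edgeR 4.0.16 quasi-likelihood test (filterByExpr, TMM), ages and their interaction with genotype in a joint fit of 12 libraries, and rounded TPM with limma 3.58.1 (trend) on log2(TPM + 1), TMM-scaled, at a mean of at least 5 TPM, all in R 4.3.3. Fold changes of low genes are understated on that scale. Adjusted p values are Benjamini-Hochberg over all genes tested and two-sided. The genotype fit of each set and the age fit in Het were run on simulated data, and the other steps were not. CPM was TMM-scaled over the 12 libraries. Symbols were matched to GENCODE M21 (GRCm38) for coordinates and lengths (23350 of 24411 genes), and promoter sequences came from RefSeq (GRCm38.p6). Promoter entries for *Thra* and *Hr*, protein sequences and isoforms were not analysed here.

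The members and all lists were chosen with earlier results of these data known. All 8 members are named, as are every other pathway gene called between genotypes, up to 3 called genes with the largest change in each pathway list and age comparison, and for each member the 3 genes with the highest r, except that some of these genes are not reported here. The alternatives were DESeq2 1.42.0, RLE size factors, library totals, other filters and pseudocounts, removal of a length and GC trend (mgcv 1.9.3), a replicate block, an adjusted p alone, and the omission of each library in turn. Libraries were not paired by replicate number in the main fits, and which pools shared litters is not known.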

Additional observations from a re-analysis of the deposited data

Results flagged for a closer look

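Single libraries stood far from the rest of their group for 2 of the 14 combinations of gene and group that held 4 libraries and a level above 0, judged by the gap to the nearest library as a share of the whole range. Chance gives about 1 in 20. *Thra* in the Homo libraries of P7 in rounded TPM was at 146 TPM in replicate 4 and at 126 TPM in each of the other libraries. *Dio2* in the Het libraries of the same set was at 159 TPM in replicate 3 and at 122, 125 and 126 TPM in the others.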

How the results depend on the processing

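The number of members called was 1 at P22 and 0 in each P7 set under every alternative run, and it ranged from 4 to 6 in Het and from 3 to 8 in Homo between ages, where it was 8 in Homo with an adjusted p alone. For the difference between genotype effects it was 1 with DESeq2, which is *Rxrg*. The receptor ratio per kb at P7 was 0.207 with the longest transcript in place of 0.434 with the median one. Values that changed sign were of genes not called. With library totals, the genotype difference was 0.0474 for *Klf9* and 0.0204 for *Hr* at P22 and 0.0195 for *Rxrg* in the P7 counts, and the age difference of *Slco1c1* in Homo was −0.0588. In rounded TPM, *Slco1c1* was 0.0453 without TMM scaling and *Hr* −0.0775 with the length and GC trend removed. The age difference of *Slco1c1* in Het was 0.0155 with DESeq2 and 0.0165 with RLE size factors, and the interaction of *Thra* was −0.00765 and −0.0088.

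With single libraries left out, the P22 difference ranged from −0.0868 to 0.345 for *Dio2* and from −0.20 to 0.22 for *Klf9*. In the P7 counts it ranged from −0.117 to 0.175 for *Thrb*, −0.207 to 0.0829 for *Dio2*, −0.0217 to 0.0867 for *Hr* and −0.0781 to 0.062 for *Rxrg*, and in rounded TPM from −0.189 to 0.0588 for *Slco1c1*. The age difference of *Slco1c1* in Het ranged from −0.0739 to 0.0594. The interaction ranged from −0.0655 to 0.0841 for *Thra*, −0.0657 to 0.25 for *Thrb* and −0.0794 to 0.337 for *Klf9*. The causes of these changes were not tested.

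Counts over all genes moved more. At P22 edgeR called 487 genes, 270 without Het replicate 1, 285 without Het replicate 3, 282 without Homo replicate 2 and 1904 with an adjusted p alone. In rounded TPM 90 genes were called, 292 without TMM scaling (which shifts the median of all genes by 0.11), 335 without Homo replicate 1, 977 with an adjusted p alone, 44 with a pseudocount of 5, 24 with the length and GC trend removed, and 0 with a minimum of 1 TPM, with no filter, with the replicate block and without any 1 of Het or Homo replicates 2 to 4. The interaction gave 5, with 119 by DESeq2, 8 without a filter, 2 with the block, and from 0 to 101 with single libraries left out, 101 without P7 Homo replicate 5 and 0 without P22 Het replicates 1 or 3, P22 Homo replicate 3, P7 Het replicate 7 or P7 Homo replicates 6 or 7.

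Deviations of libraries with the same replicate number correlated between −0.0191 and 0.0253 at P22, between −0.19 and 0.0806 in the P7 counts and between −0.232 and −0.0118 in rounded TPM. With the replicate block 1 member was called at P22 and 0 in each P7 set and in the interaction, and the difference of *Klf9* at P22 became 0.0197. No paired analysis was possible for the ages because the libraries in counts share no number between them. A depth of at least 31108551 counts per library left *Dio3* too low for a test at P7, and rounding limits *Dio3*, *Rxrg* and *Thrb* in rounded TPM.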
